A study of Homo sapiens with 6 samples.

Results

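The genes of the mitochondrial genome were followed in HepG2 cells, an established human hepatocarcinoma line with wild-type genotype, kept for 24 h with vehicle or with 10 mM added glycine. RNA was sequenced in 6 libraries, 3 per treatment, and each library is named here by its treatment and replicate number. The study asked how glycine, a source of endogenous cyanide, acts on cells and their energy metabolism. The members were all listed genes placed on the mitochondrial chromosome, which gave 35 of 57500 genes. Of these, 13 code for proteins and 22 for tRNAs, and the 2 rRNA genes were not analysed here. All 35 had the same start and end in GENCODE release 29 for GRCh38, and all 35 passed the filter on low counts. The cells were a tumour line grown in culture, which limits them as a model of liver, and both treatments used the same line.

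Human mitochondria keep a small circular genome of their own, present in many copies per cell. Both of its strands are transcribed as long precursors, from which the tRNAs are cut out, and these cuts release the messenger and ribosomal RNAs that lie between them. Most of the messenger RNAs then receive short poly(A) tails, which that of MT-ND6 is known to lack, and all are translated by mitochondrial ribosomes into core subunits of the respiratory chain, while the other subunits and the protein factors of transcription, processing and translation come from nuclear genes. Complex I passes electrons from NADH to ubiquinone, complex III passes them on to cytochrome c, complex IV reduces oxygen and is the classical site of inhibition by cyanide, and complex V makes ATP. The mitochondrial genome holds 7 genes of complex I, 1 of complex III, 3 of complex IV and 2 of complex V. In the annotation 12 of the 13 protein-coding genes lie on the plus strand and MT-ND6 alone lies on the minus strand, with 14 tRNA genes on the plus strand and 8 on the minus strand.

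The sequences below carry the results on tRNAs and on shared transcripts. They were read from the GENCODE transcripts for GRCh38 and are printed 5′ to 3′ on the strand of the gene, with the anticodon in capitals. MT-TT, the threonine tRNA, is shown because it was the mitochondrial gene called different with glycine. It lies at chrM:15888-15953 on the plus strand, directly after the last base of MT-CYB.
MT-TT: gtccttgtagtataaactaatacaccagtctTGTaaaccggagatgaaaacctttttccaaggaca
MT-TN, MT-TC and MT-TY, the tRNAs for asparagine, cysteine and tyrosine, are shown because they lie side by side and held most of the tRNA counts. Their positions are chrM:5657-5729, chrM:5761-5826 and chrM:5826-5891, all on the minus strand.
MT-TN: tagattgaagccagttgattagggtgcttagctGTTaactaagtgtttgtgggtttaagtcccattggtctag
MT-TC: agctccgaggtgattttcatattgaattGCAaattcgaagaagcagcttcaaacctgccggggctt
MT-TY: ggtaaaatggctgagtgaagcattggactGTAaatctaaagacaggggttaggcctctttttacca

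Another pair of stretches shows where messenger RNA genes overlap, so that a read there belongs to both. MT-ATP8 and MT-ATP6 share 46 bases, printed in capitals at chrM:8507-8592 on the plus strand with 20 bases on either side. MT-ND4L and MT-ND4 share 7 bases, printed in the same way at chrM:10740-10786 on the plus strand. How the counting treated reads in these bases is not given in the sources used here.
MT-ATP8 and MT-ATP6: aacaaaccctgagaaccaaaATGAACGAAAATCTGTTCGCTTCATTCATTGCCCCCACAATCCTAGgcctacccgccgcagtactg
MT-ND4L and MT-ND4: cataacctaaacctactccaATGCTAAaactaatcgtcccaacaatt

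The libraries held between 31795489 and 58815986 counts, with glycine 2 the deepest. All 14 hepatocyte markers were expressed enough to be tested, summing to between 34345 and 38858 CPM per library with vehicle and between 31068 and 34843 CPM with glycine. Of these, 1 was called higher and 2 lower. Their log2 changes were above 0 for 5 and below 0 for 9, with a median of -0.18. CPM gives a count relative to the scaled library size. Markers of other cell types were not all absent. Of 5 fibroblast markers, DCN (3 counts over all libraries), LUM and COL1A2 (19 each) were too low to test, while COL1A1 was called higher and PDGFRB lower, and their sum was 27.1 to 30.9 CPM with vehicle and 21.3 to 21.98 CPM with glycine. Of 4 leukocyte markers, CD3E was at 0 and PTPRC had 9 counts, while CD68 was called higher and LYZ lower, from 2229 to 1787 CPM, and the sum, nearly all of it LYZ, was 2124 to 2327 CPM with vehicle and 1692 to 1851 CPM with glycine. The 3 endothelial markers summed to 5.45 to 5.76 CPM with vehicle and 4.60 to 5.26 CPM with glycine, with VWF called lower. Their part in the results below was not tested. Across all genes tested, 13.3% were called different with glycine, 6.71% higher and 6.54% lower (edgeR quasi-likelihood test, adjusted p under 0.05). A gene is called here when it passed that threshold.

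Transcripts of the 35 mitochondrial genes, which leave out the rRNA genes, took a share of the library that varied more within a treatment than between treatments. They held 2.08%, 2.82% and 1.96% of all counts in vehicle 1, 2 and 3, and 1.94%, 2.49% and 2.15% in glycine 1, 2 and 3. Vehicle 2 was the highest library and glycine 2 the next, and the groups overlapped. The mean was 2.29% ± 0.465 with vehicle and 2.19% ± 0.276 with glycine (SD, n = 3 each). The Wilson 95% interval of a library's share reached at most 0.00543 percentage points to either side, an interval for counting error alone, as PCR copies could not be told from separate molecules. The difference between the means was -0.10 percentage points, and it was above 0 when vehicle 2 (0.170) or glycine 1 (0.0291) was left out. In such bulk samples, a different mix of cells, fewer mitochondria and less RNA in each cannot be told apart.

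The messenger RNAs made up nearly all of this share, which holds no counts of rRNA genes. The 13 protein-coding genes held 2.04%, 2.75% and 1.89% of the counts with vehicle and 1.88%, 2.42% and 2.10% with glycine. The 22 tRNA genes held 0.0478%, 0.0731% and 0.0726% with vehicle and 0.0611%, 0.0668% and 0.0481% with glycine. The classes ordered the libraries differently: vehicle 3 was the lowest of the vehicle libraries for messenger RNA and close to vehicle 2, the highest, for tRNA.

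**Figure D1:**
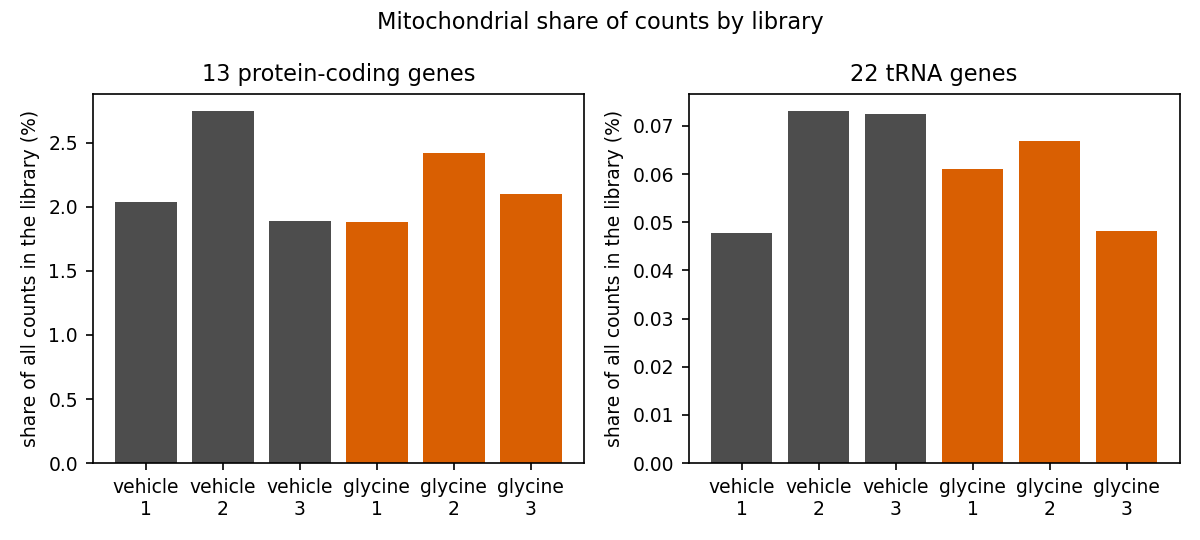
Share of all counts in a library (%, bars from 0) held by the 13 protein-coding genes (left) and the 22 tRNA genes (right), with grey bars for vehicle 1 to 3 and orange bars for glycine 1 to 3. Vehicle 2 stands highest on the left at 2.75%, and the bars of the treatments overlap in both panels.

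Of the 13 protein-coding genes, 0 were called higher and 0 lower with glycine, and 0 had an unadjusted p under 0.05 with edgeR, DESeq2 or limma-voom. The edgeR adjusted p ranged from 0.266 for MT-ND6 to 0.966 for MT-ND2. The log2 change was below 0 for 9 genes and above 0 for 4, with a median of -0.13 against 0.00 over all genes tested. None of the 13 separated the treatments without overlap in CPM, while 31.6% of all genes tested did. The direction depended most on vehicle 2. Without vehicle 2, 11 of 13 log2 changes were above 0, and without glycine 2, 12 were below 0. Without both of these libraries, 7 were below 0 and 6 above. Without vehicle 1 or without vehicle 3 all 13 were below 0. In each of these fits 0 were called.

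None of the complex IV genes was called. MT-CO1, which encodes the subunit with the oxygen-binding site, was at 5401, 7720 and 4876 CPM with vehicle and 5160, 6175 and 5697 CPM with glycine (log2 change -0.08 ± 0.145, s.e.). MT-CO2, whose product takes electrons from cytochrome c, was at 2025, 2743 and 1971 CPM with vehicle and 1830, 2540 and 2068 CPM with glycine (log2 change -0.07 ± 0.136). MT-CO3, the remaining core subunit, was at 1847, 2555 and 1853 CPM with vehicle and 2072, 2391 and 2123 CPM with glycine (log2 change 0.07 ± 0.119). In all 3 genes vehicle 2 was the highest of the 6 libraries, and its distance from the other vehicle libraries was larger than the distance between the treatment means.

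Complex I held the gene with the smallest p and the gene with the widest error. MT-ND6, the gene of the minus strand, had the smallest p of the 13, with 662, 877 and 615 CPM under vehicle and 508, 728 and 573 CPM under glycine. Its log2 change was -0.25 ± 0.138 (edgeR adjusted p = 0.266), and it was called lower when no expression filter was used (0.0180). The treatments overlapped, with glycine 2 above vehicle 1 and vehicle 3. MT-ND3, a small membrane subunit, was at 712, 1040 and 519 CPM with vehicle and 569, 913 and 478 CPM with glycine, and its log2 change of -0.21 ± 0.232 had the largest standard error of the 13. Replicate 2 stood far above the others in both treatments. MT-ND5, a large proton-pumping subunit, was at 1393, 1887 and 1145 CPM with vehicle and 1186, 1441 and 1296 CPM with glycine (log2 change -0.17 ± 0.143).

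The other complex I genes, which all encode membrane subunits, were not called either. MT-ND4 was at 2481, 3321 and 2365 CPM with vehicle and 2100, 2891 and 2487 CPM with glycine (log2 change -0.13 ± 0.135). MT-ND4L, whose gene overlaps MT-ND4, was at 416, 595 and 366 CPM with vehicle and 378, 463 and 415 CPM with glycine (log2 change -0.13 ± 0.140). MT-ND2 was at 1138, 1677 and 1062 CPM with vehicle and 1093, 1601 and 1224 CPM with glycine (log2 change 0.02 ± 0.162). Vehicle 2 was the highest library for each of them. MT-ND1, a membrane subunit near the ubiquinone site, was the exception among the 13, with its highest value in glycine 2: 1035, 1378 and 1033 CPM with vehicle and 1028, 1388 and 1158 CPM with glycine (log2 change 0.05 ± 0.124).

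The remaining messenger RNAs belong to complexes III and V. MT-CYB, cytochrome b of complex III, was at 956, 1281 and 957 CPM with vehicle and 929, 1253 and 1078 CPM with glycine (log2 change 0.03 ± 0.124). MT-ATP6, part of the proton channel of complex V, was at 1666, 2195 and 1518 CPM with vehicle and 1366, 1865 and 1540 CPM with glycine. MT-ATP8, a small accessory subunit made from the same messenger RNA, was at 585, 794 and 527 CPM with vehicle and 483, 662 and 550 CPM with glycine. Both complex V genes had a log2 change of -0.17, with standard errors of 0.135 and 0.138 and overlapping treatments.

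**Figure D2:**
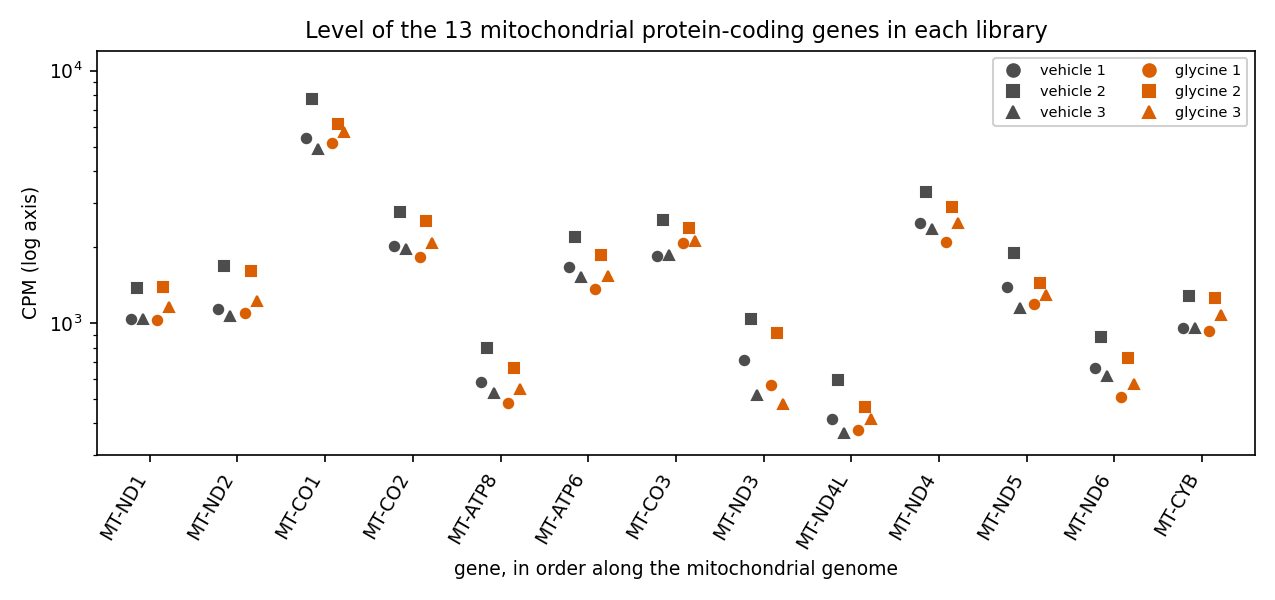
Level of each mitochondrial protein-coding gene in CPM (log axis), with genes in their order along the genome, grey symbols for vehicle and orange for glycine, and circle, square and triangle for replicates 1, 2 and 3. The squares of replicate 2 lie highest within both treatments for 13 of 13 genes.

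The messenger RNAs were high and low in the same libraries. Vehicle 2 was the highest vehicle library for 13 of 13 genes and glycine 2 the highest glycine library for 13 of 13, while vehicle 3 was the lowest vehicle library for 11 and glycine 1 the lowest glycine library for 12. The median coefficient of variation among replicates was 19.9% with vehicle and 15.9% with glycine. Over the 357 tested genes with a vehicle mean of at least 400 CPM, it was 6.50% and 5.16%. The genes come from shared precursors and one set of libraries, so they are not independent replicates of this order.

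Levels were compared between genes per kilobase of gene length, as the mean over the 6 libraries. MT-CO1 had the highest level, at 3786 ± 665 CPM per kilobase (SD, n = 6), and MT-ND5 the lowest, at 768 ± 148, a range of 4.93-fold. Between them came MT-CO2 (3210 ± 526), MT-ATP8 (2898 ± 543), MT-CO3 (2730 ± 364), MT-ATP6 (2484 ± 437), MT-ND3 (2038 ± 659), MT-ND4 (1892 ± 314) and MT-ND4L (1477 ± 282). MT-ND6 (1258 ± 248), MT-ND2 (1247 ± 259), MT-ND1 (1224 ± 180) and MT-CYB (943 ± 138) completed the order. Complex IV and V genes thus filled the first 5 places.

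For most neighbours in this order the gap was not larger than the SD of both genes. That SD includes the spread between libraries that the genes share. In 3 of 12 neighbouring pairs the gap was larger than the SD of both genes: MT-ND4 over MT-ND4L, MT-ND1 over MT-CYB, and MT-CYB over MT-ND5. Compared within each library, 7 of the 12 pairs kept their order in all 6 libraries. MT-CO1 exceeded MT-CO2 in 6 of 6, whereas MT-ND6 exceeded MT-ND2, and MT-ND2 exceeded MT-ND1, in 3 of 6 each. Short genes depend on how length is set: with the length reduced by a fragment of 100 bases, MT-ATP8 moved to the first place and 5 of 13 ranks changed.

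Because the messenger RNAs varied together, each gene was also given as a share of the protein-coding mitochondrial counts of its library, as a description without a test. On this scale 3 genes were lower with glycine without overlap, 1 was higher without overlap, and 9 overlapped. Among all genes tested, 8.07% had no overlap when scaled to the same counts, against 31.6% in CPM. Division by the mitochondrial counts adds their spread between libraries to nuclear genes, but removes the spread that the mitochondrial genes share. For this reason neither percentage can show whether more of the mitochondrial genes separated than genes in general. The MT-ND6 share was 3.26%, 3.13% and 3.27% with vehicle and 2.72%, 3.00% and 2.77% with glycine. The MT-ATP6 share was 8.20%, 7.82% and 8.07% with vehicle and 7.30%, 7.67% and 7.45% with glycine. The MT-ATP8 share was 2.88%, 2.83% and 2.80% with vehicle and 2.58%, 2.72% and 2.66% with glycine. In these 3 genes every glycine library lay below every vehicle library, with glycine 2 the closest to the vehicle range.

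MT-ND1 was the gene with a higher share, at 5.10%, 4.91% and 5.49% with vehicle and 5.50%, 5.71% and 5.60% with glycine, and glycine 1 stood barely above vehicle 3. The MT-CO3 share was 9.09%, 9.10% and 9.85% with vehicle and 11.1%, 9.83% and 10.3% with glycine, where glycine 2 fell just below vehicle 3. MT-CO1 held between 25.4% and 27.6% in every library. MT-ND3 varied most, with a coefficient of variation of 18.1% over the 6 libraries.

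Summed by complex, only the complex V share separated the treatments, at 10.9% ± 0.212 with vehicle and 10.1% ± 0.253 with glycine (SD, n = 3 each). Its genes, MT-ATP6 and MT-ATP8, share a messenger RNA, so this repeats their lower shares. Shares are parts of a whole, so a higher share of some genes lowers that of others. Complex I held 38.2% ± 0.418 and 37.4% ± 1.15, complex III 4.79% ± 0.273 and 5.11% ± 0.128, and complex IV 46.1% ± 0.399 and 47.3% ± 1.45, with overlap in each. An edgeR fit scaled to the mitochondrial protein-coding counts was chosen after the data were seen. It called 0 of the 13 genes, with 0 at an unadjusted p under 0.05 and a smallest adjusted p of 0.99998. Over all 15492 genes tested it called 103 higher and 67 lower, against 1040 and 1013 in the fit with the usual scaling. With so few calls among all genes, it cannot decide whether these shares differed.

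**Figure D3:**
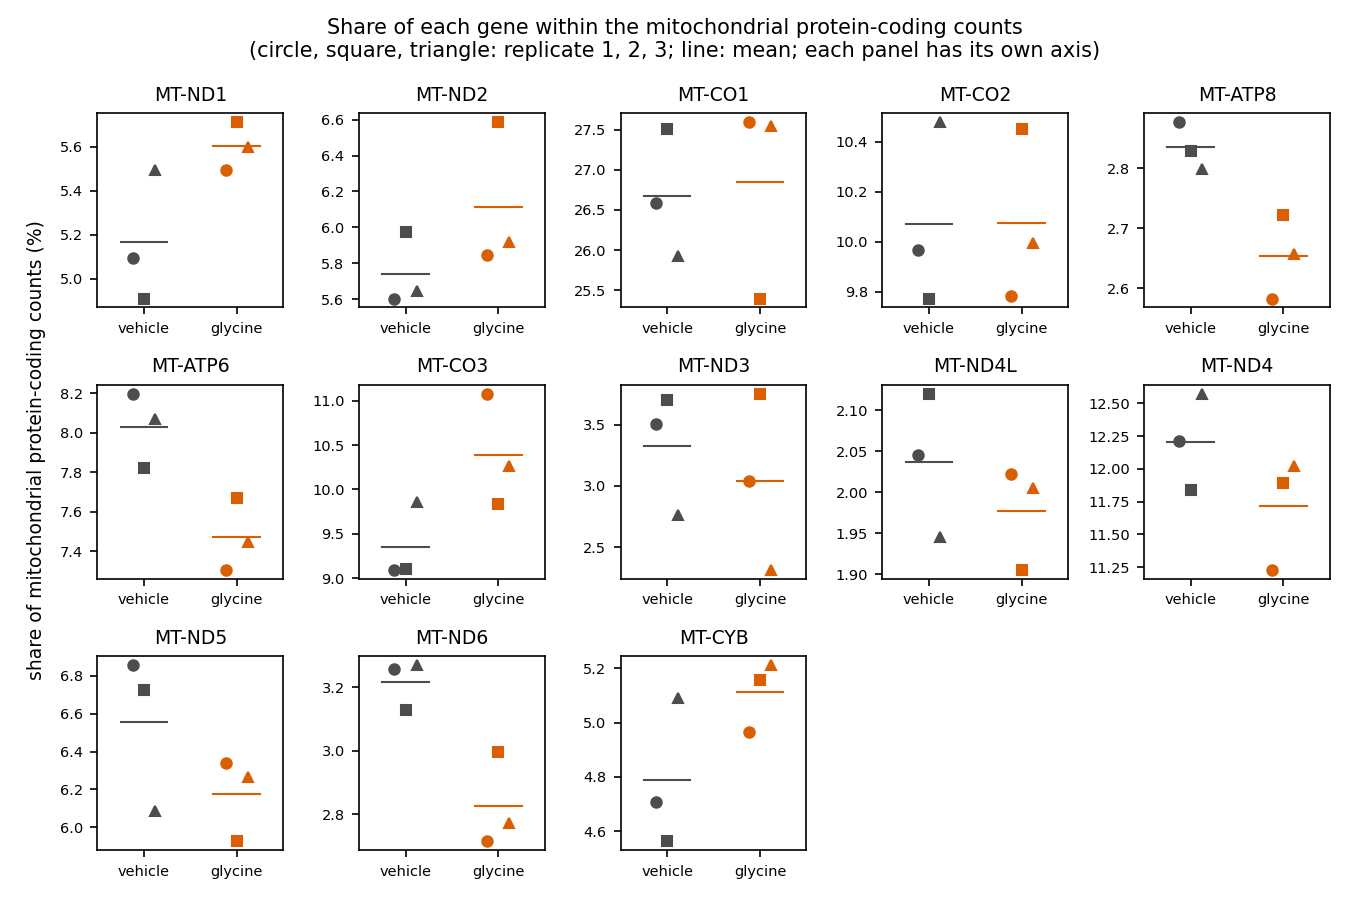
Share of each gene within the mitochondrial protein-coding counts of a library (%), 1 panel per gene with its own axis that does not start at 0, grey symbols for vehicle, orange for glycine, and lines for the means. MT-ATP8, MT-ATP6 and MT-ND6 lie lower with glycine and MT-ND1 higher, without overlap, and the other 9 genes overlap.

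The tRNA genes spanned a much wider range of levels than the messenger RNAs. Mature tRNAs are short, folded and modified, which limits their capture in messenger RNA libraries, and reads in these genes can also come from precursors, so the values are not amounts of mature tRNA. The highest, MT-TN, had 2521 CPM per kilobase and the lowest, MT-TR, the arginine tRNA, 4.44, a range of 568-fold. MT-TR abuts genes on both sides, whereas MT-TF, MT-TV and MT-TL1 border stretches of 954 or 1559 bases with no gene analysed here. MT-TY, also far above MT-TR, overlaps MT-TC. How reads that span neighbouring genes were counted is not given, and its part in this range was not tested. A group of 7 genes had a mean of at least 10 CPM, from 19.6 to 184 CPM: MT-TN, MT-TC, MT-TY, MT-TL1, MT-TP, MT-TF and MT-TV. They held between 93.7% and 96.9% of the tRNA counts of a library. The other 15 had means from 0.289 to 8.66 CPM, with MT-TL2, a leucine tRNA, at the top and MT-TR at the bottom.

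The order of the tRNA genes was clear in large steps. Per kilobase, MT-TN was followed by MT-TC (2046), MT-TL1 (1278), MT-TY (1102), MT-TP (891), MT-TV (284), MT-TF (278) and MT-TL2 (122). MT-TC over MT-TL1, MT-TP over MT-TV and MT-TF over MT-TL2 held in 6 of 6 libraries with gaps larger than the SD of both genes. MT-TV and MT-TF, which lie on either side of a ribosomal RNA gene, exceeded each other in 3 libraries each. Of the 21 neighbouring pairs, 9 had a gap larger than the SD of both genes.

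**Figure D4:**
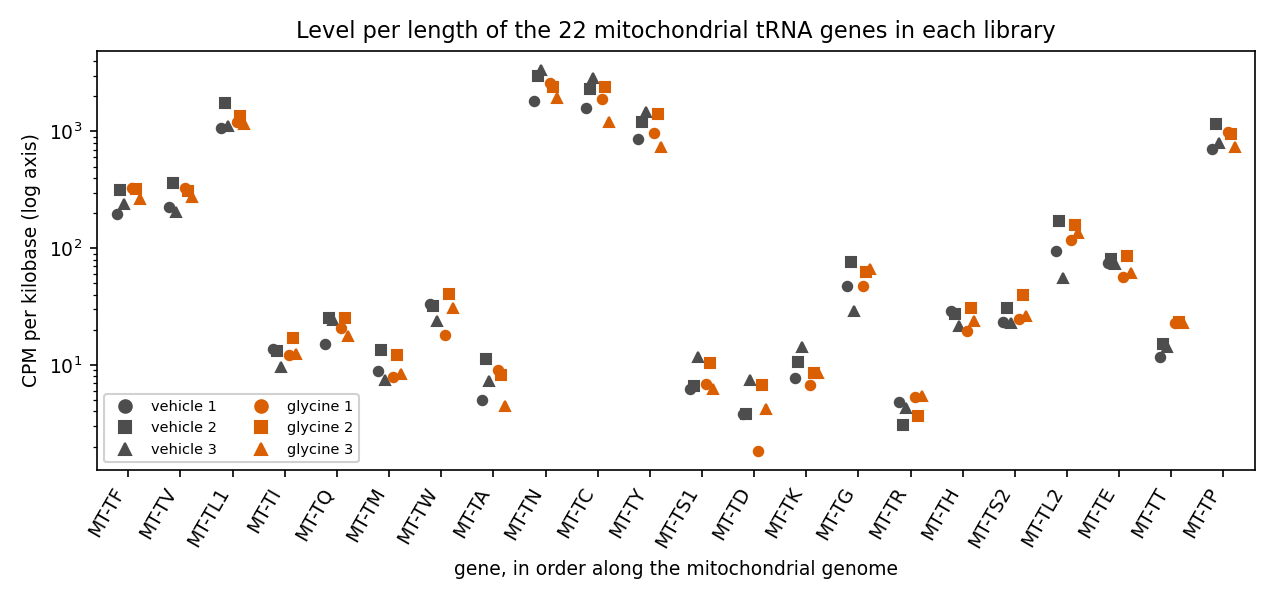
Level of each mitochondrial tRNA gene in CPM per kilobase (log axis), with genes in their order along the genome, grey symbols for vehicle and orange for glycine, and circle, square and triangle for replicates 1, 2 and 3. The cluster MT-TN, MT-TC and MT-TY stands at the top, and MT-TT is the gene whose orange symbols all lie above the grey ones.

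The asparagine, cysteine and tyrosine tRNAs, whose sequences are given above, held between 56.8% and 73.6% of the tRNA counts. MT-TN was at 132, 219 and 246 CPM with vehicle and 192, 174 and 142 CPM with glycine. MT-TC was at 105 (vehicle 1), 154 and 190 CPM with vehicle and 125, 157 and 78.8 CPM with glycine. MT-TY was at 56.3, 79.2 and 96.2 CPM with vehicle and 63.6, 92.6 and 48.4 CPM with glycine. Vehicle 3 was the highest library for all 3 genes, although it was the lowest vehicle library for most messenger RNAs, and the treatments overlapped.

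Set against the messenger RNAs, these 3 tRNAs had 14.5, 16.1 and 28.3 counts per 1000 mitochondrial protein-coding counts in the vehicle libraries and 20.3, 17.4 and 13.02 in the glycine libraries. The other 19 tRNA genes together had 9.02, 10.5 and 10.2 with vehicle and 12.3, 10.2 and 9.92 with glycine, without such a peak in vehicle 3. The log2 changes with glycine were -0.23 ± 0.172 for MT-TN, -0.31 ± 0.215 for MT-TC and -0.18 ± 0.202 for MT-TY (edgeR adjusted p = 0.419, 0.384 and 0.625). In a list of 15 nuclear RNAs without a poly(A) tail, 5 of which were at 0 in all libraries, the summed level was 149, 129 and 72.1 CPM with vehicle and 99.7, 131 and 96.9 CPM with glycine. The low value of vehicle 3 came from RN7SL2, an RNA of the signal recognition particle, at 98.6, 78.6 and 19.8 CPM with vehicle and 46.8, 67.3 and 38.0 CPM with glycine. Without it the sum, mostly of histone genes, was 50.3, 50.7 and 52.3 CPM with vehicle and 52.9, 63.8 and 58.9 CPM with glycine, so vehicle 3 was not low there. The part of these RNAs in the tRNA levels was not tested.

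The tRNAs of the plus strand next to the ribosomal RNA genes followed another order. MT-TL1, a leucine tRNA, was at 79.6, 133 and 83.2 CPM with vehicle and 90.4, 102 and 87.3 CPM with glycine (log2 change -0.08 ± 0.149). MT-TF, the phenylalanine tRNA, was at 13.9, 22.4 and 17.1 CPM with vehicle and 23.4, 22.8 and 18.9 CPM with glycine (log2 change 0.29 ± 0.139, edgeR adjusted p = 0.208). MT-TV, the valine tRNA, was at 15.4, 25.1 and 14.1 CPM with vehicle and 22.5, 21.4 and 18.8 CPM with glycine (log2 change 0.20 ± 0.165). Vehicle 2 was the highest vehicle library for each, within or above the glycine range, and MT-TF and MT-TV were called higher when it was left out (edgeR adjusted p = 0.0164 and 0.00546).

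Among the 22 tRNA genes, 1 was called higher and 0 lower, against 6.71% and 6.54% of all genes tested. That gene was MT-TT (ENSG00000210195), the threonine tRNA. It had 27, 35 and 34 counts in the vehicle libraries and 48, 90 and 64 in the glycine libraries, or 0.771, 1.0 and 0.946 CPM against 1.5, 1.54 and 1.52 CPM. All glycine libraries lay above all vehicle libraries. The glycine values lay closer together (coefficient of variation 1.14%) than counting error at 48 to 90 counts alone would give. Their SD therefore understates the error of this level. The log2 change was 0.74 ± 0.189 (edgeR adjusted p = 0.0201), a rise from 0.907 ± 0.121 to 1.52 ± 0.0173 CPM (SD, n = 3 each).

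The neighbours of MT-TT did not share this change. MT-CYB, which ends at the base before it, had a log2 change of 0.03 ± 0.124, and MT-TP, the proline tRNA that lies 2 bases after it on the minus strand, was at 48.4, 79.0 and 54.5 CPM with vehicle and 66.9, 64.3 and 50.3 CPM with glycine (log2 change 0.00 ± 0.149). MT-TT was far less abundant than either, so its counts are a small part of the reads around it. The call was lost with DESeq2 (adjusted p = 0.0794), without vehicle 1 (0.0888), glycine 1 (0.0545), glycine 2 (0.0726) or glycine 3 (0.0602). Over all alternatives its adjusted p ran from 0.00999 with no expression filter to 0.458 when scaled to mitochondrial protein-coding counts. That last fit called few genes of any kind. At 27 to 90 counts per library it rests on few reads.

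The other 14 tRNA genes under 10 CPM were not called. MT-TG, the tRNA that carries glycine itself, was at 3.20, 5.22 and 1.98 CPM with vehicle and 3.23, 4.25 and 4.55 CPM with glycine, with overlap and a log2 change of 0.23 ± 0.253 (edgeR adjusted p = 0.611). MT-TL2 was at 6.74, 12.1 and 3.98 CPM with vehicle and 8.33, 11.2 and 9.62 CPM with glycine (log2 change 0.37 ± 0.265). MT-TK, the lysine tRNA, had the most negative log2 change of the 22, at -0.44 ± 0.273 (edgeR adjusted p = 0.330), with 0.542, 0.745 and 1.0 CPM with vehicle and 0.470, 0.598 and 0.592 CPM with glycine.

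The rest of the low tRNA genes moved little or had wide errors. The log2 changes were 0.27 ± 0.213 for MT-TS2 (serine), 0.22 ± 0.236 for MT-TI (isoleucine), 0.20 ± 0.356 for MT-TR and 0.05 ± 0.242 for MT-TW (tryptophan). They were 0.00 ± 0.222 for MT-TQ (glutamine), -0.02 ± 0.291 for MT-TM (methionine), -0.02 ± 0.322 for MT-TS1 (serine) and -0.04 ± 0.196 for MT-TH (histidine). For MT-TD (aspartate), MT-TA (alanine) and MT-TE (glutamate) they were -0.10 ± 0.436, -0.12 ± 0.348 and -0.14 ± 0.15. For all of these the treatments overlapped. Over the 22 genes, 9 log2 changes were above 0 and 13 below, with a median of -0.01 against 0.00 over all genes tested.

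**Figure D5:**
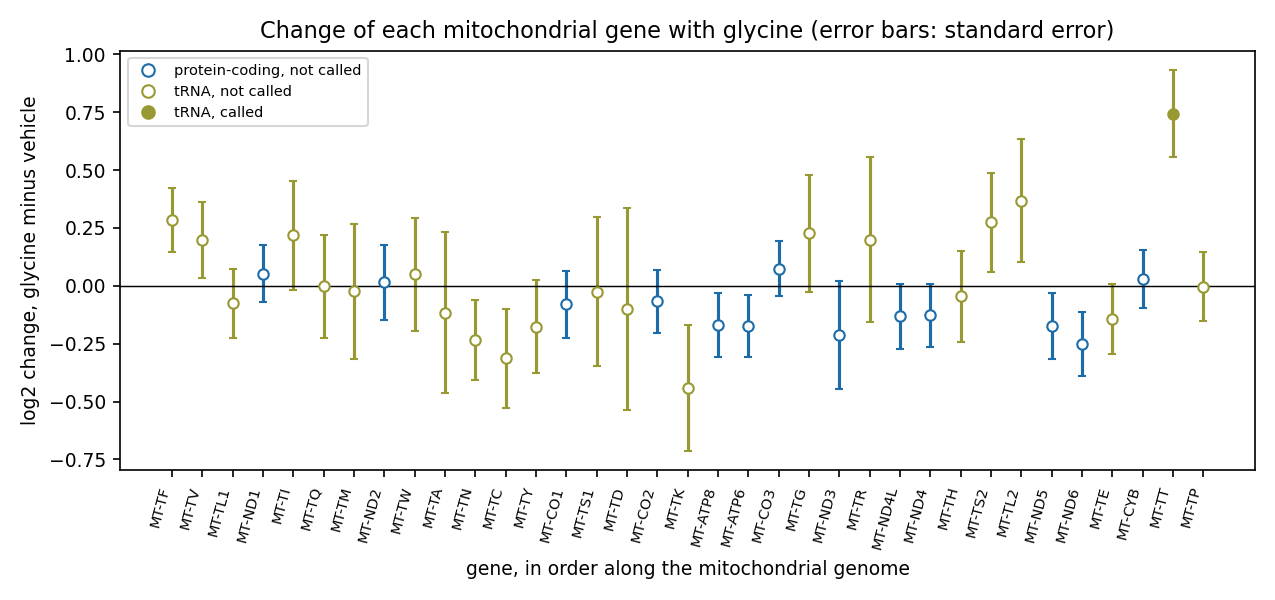
Log2 change with glycine (glycine minus vehicle, edgeR) of the 35 mitochondrial genes in their order along the genome, with bars for the standard error, blue for protein-coding and olive for tRNA genes. A filled symbol marks an adjusted p under 0.05, which MT-TT alone reached at 0.74.

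Copies of mitochondrial genes in the nuclear genome can share reads with their originals. The tables listed 406 such copies, 62 of which had a count, and together they amounted to 0.722% of the mitochondrial protein-coding counts. MTATP6P1, on chromosome 1 from 633696 to 634376, differs from MT-ATP6 at 10 of 681 bases and held 7.03% of the counts of the pair, between 6.62% and 7.47% in each library. MTCO1P12 and MTND2P28, on the same chromosome, held 0.309% and 0.647% of the counts shared with MT-CO1 and MT-ND2. MTND4P12 on chromosome 5 held 0.0286% with MT-ND4, and MTCO2P12 on chromosome 1 held 0.0243% with MT-CO2. By assigned counts, MT-ATP6 thus shared most with its copy. MTCO1P12, MTND2P28 and MTCO2P12 are 98.6%, 98.4% and 97.9% identical to their originals. How reads with several matches were treated is not known, so low counts of a copy do not show that few reads are affected.

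The nuclear genes that read and process the mitochondrial genome were taken from lists that cover transcription and replication (20 genes) and RNA processing and stability (37 genes). Of these 57 genes, all tested, 4 were called higher and 0 lower. Their median log2 change was 0.07, against 0.00 over all genes tested, and 44 of the 57 (77.2%) were above 0, against 50.8% of all genes tested. The share called higher was near the 6.71% of all genes. MTERF3, a regulator of mitochondrial transcription and ribosome assembly, was at 6.54, 7.14 and 7.68 CPM with vehicle and 8.87, 9.42 and 9.41 CPM with glycine (log2 change 0.38 ± 0.0955, edgeR adjusted p = 0.0199). TWNK, the mitochondrial DNA helicase, was at 53.7, 54.6 and 50.4 CPM with vehicle and 62.8, 62.3 and 59.4 CPM with glycine (log2 change 0.22 ± 0.0632, edgeR adjusted p = 0.0379). FASTKD1, a mitochondrial RNA-binding protein, was at 12.5, 12.4 and 11.4 CPM with vehicle and 15.5, 15.1 and 15.8 CPM with glycine (log2 change 0.35 ± 0.0786, edgeR adjusted p = 0.0107).

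PNPT1, a polynucleotide phosphorylase of the mitochondrial RNA degradation machinery, was the remaining gene called, at 43.6, 37.7 and 42.3 CPM with vehicle and 47.0, 47.4 and 52.7 CPM with glycine (log2 change 0.25 ± 0.0752, edgeR adjusted p = 0.0432). In all 4 genes the glycine libraries lay above every vehicle library. The mitochondrial RNA polymerase POLRMT (log2 change 0.08), the packaging and initiation factor TFAM (0.03) and LRPPRC, which stabilizes mitochondrial messenger RNAs (0.06), were not called. The count of 4 fell to 1 without vehicle 1, 2 without glycine 1, 1 without glycine 2 and 0 without glycine 3. Over all genes tested, the number called higher fell from 1040 to 590, 594, 617 and 587 in these fits.

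The genes that charge mitochondrial tRNAs with amino acids form a list of synthetases and the amidotransferase of glutamine tRNA. Of 22 tested, 6 were called higher and 0 lower, which is above the 6.71% of all genes. The list's median log2 change was 0.03. AARS2, for alanine, was at 33.3, 33.6 and 32.0 CPM with vehicle and 43.2, 39.3 and 38.5 CPM with glycine (log2 change 0.29 ± 0.0682, edgeR adjusted p = 0.0134). EARS2, for glutamate, was at 73.1, 74.1 and 72.5 CPM with vehicle and 87.0, 84.0 and 84.5 CPM with glycine (log2 change 0.22 ± 0.0580, edgeR adjusted p = 0.0259). The glycine libraries lay above the vehicle libraries in each.

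TARS2, which charges the tRNA of MT-TT with threonine, was at 31.5, 33.2 and 34.9 CPM with vehicle and 38.2, 41.0 and 39.2 CPM with glycine (log2 change 0.25 ± 0.0673, edgeR adjusted p = 0.0276). HARS2, for histidine, was at 21.6, 21.6 and 21.1 CPM with vehicle and 24.8, 24.8 and 25.4 CPM with glycine (log2 change 0.22 ± 0.0662, edgeR adjusted p = 0.0418). The enzymes for the abundant tRNAs of asparagine (NARS2, log2 change -0.10), cysteine (CARS2, 0.02) and tyrosine (YARS2, -0.12) were not called, nor was GARS1, which charges glycine in both the cytosol and mitochondria (-0.05). The count of 6 fell to 3 without vehicle 1 or vehicle 3, 4 without vehicle 2, 1 without glycine 1 and 2 without glycine 2 or glycine 3. Over all genes tested, 1040 were called higher with every library kept and 587 to 926 in these fits.

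Among 10 regulators of mitochondrial biogenesis and protein quality, 0 were called higher and 2 lower, against 6.71% and 6.54% of all genes tested. PPARGC1A, the coactivator that drives mitochondrial biogenesis in liver and muscle, was at 12.3, 10.2 and 11.1 CPM with vehicle and 7.86, 8.05 and 9.03 CPM with glycine (log2 change -0.43 ± 0.0994, edgeR adjusted p = 0.0125). ESRRA, a nuclear receptor that works with it, was at 55.8, 52.9 and 59.8 CPM with vehicle and 47.1, 47.7 and 49.5 CPM with glycine (log2 change -0.22 ± 0.0666, edgeR adjusted p = 0.0417). Every glycine library was below every vehicle library in both genes, and the median of the 10 was -0.05. Without vehicle 1 or without glycine 2 neither was called, and without vehicle 3, glycine 1 or glycine 3 only PPARGC1A was.

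The nuclear partners of the mitochondrial subunits are read against the 6.71% of all genes tested that were called higher and the 6.54% called lower. Of 37 nuclear complex I genes 1 was called lower and 0 higher, and the list had a median log2 change of 0.01. That gene was NDUFC2, an accessory subunit, at 125, 135 and 123 CPM with vehicle and 104, 106 and 103 CPM with glycine (log2 change -0.29 ± 0.0614, edgeR adjusted p = 0.00728). Of 38 nuclear genes of complexes III, IV and V, 1 was called higher and 0 lower, with a median of 0.02. That gene was ATP5MC1, which encodes the ring subunit of ATP synthase, at 67.3, 59.9 and 69.9 CPM with vehicle and 74.2, 95.7 and 79.9 CPM with glycine (log2 change 0.34 ± 0.0914, edgeR adjusted p = 0.0252). It was not called without vehicle 1, vehicle 2, glycine 2 or glycine 3, and 2 genes of the list were called without vehicle 3.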

How the data were processed

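RNA of 6 HepG2 libraries was analysed, 3 with vehicle and 3 with glycine (10 mM, 24 h), grouped by the treatment in their labels. The study describes independent replicates. It also states that its cell-based assays had control and treated samples in every run, repeated on different days. Whether same-numbered libraries came from 1 run is not given in the sources used here. The deposited files hold whole-number read counts per gene that the authors did not normalize. The submitters' processing notes name Trimmomatic 0.36, STAR 2.5.2b, featureCounts, Subread 1.5.2 and GRCh38. The annotation, library selection, strand setting and treatment of reads with several matches are not given in the sources used here, so antisense and overlapping genes and nuclear copies share reads to an unknown extent.

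Group differences were tested on the counts of all genes by edgeR 4.0.16 (R 4.3.3, quasi-likelihood F test, two-sided), after its expression filter (minimum count 10, minimum total 15) and scaling by the trimmed mean of M values, with the group alone in the model. Benjamini-Hochberg adjustment covered 15492 genes, and 0.05 was the threshold. A standard error is the log2 change over the square root of F. Shares used all counts of a library. Every mitochondrial protein-coding and tRNA gene was named. Of each nuclear list, the genes called were named, up to 5 by smallest p, except 1 that is not reported here, and POLRMT, TFAM, LRPPRC, NARS2, CARS2, YARS2 and GARS1 were added for their known roles after their values were seen. DESeq2 1.42.0, limma 3.58.1, other scalings and filters, a replicate block and leaving out libraries were alternatives. Pairs of replicates differed beyond sampling noise (chi-square over degrees of freedom from 7.59 to 29.3), so all 6 libraries were kept as separate samples. The test was checked on simulated counts of independent genes with a common dispersion. That check does not cover genes that vary together, as the mitochondrial messenger RNAs did. Members and lists were chosen with earlier results of these data known.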

Additional observations from a re-analysis of the deposited data

How the results depend on the processing

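The calls of single genes rested on 3 libraries per treatment, and depth limited the tRNA genes with under 100 counts per library. The direction of the messenger RNA changes depended most on vehicle 2. The mitochondrial share of counts stayed within the replicate spread under every alternative, from -0.26 to 0.17 percentage points when a library was left out. The fits scaled to mitochondrial protein-coding counts and those without vehicle 2 and glycine 2 were chosen after the data were seen.

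With no expression filter, 1 protein-coding gene was called lower (MT-ND6, edgeR adjusted p = 0.0180), 3 tRNA genes were called higher (MT-TF, MT-TL2 and MT-TT) and 2 lower (MT-TN and MT-TC), and 1 biogenesis regulator was called lower. This fit had 31093 genes, of which 1221 were called higher and 1242 lower. DESeq2 called 0 tRNA genes higher, as did scaling to mitochondrial protein-coding counts. That scaling moved the median of all genes to 0.05 (log2) and called 103 of all genes higher and 67 lower. In both of these fits, 1 tRNA gene had an unadjusted p under 0.05. Total counts gave 1 biogenesis regulator lower and 2 genes of complexes III, IV and V higher, and a filter of 1 CPM in 3 libraries also gave 2 of the latter. The cause was not tested.

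Without both vehicle 2 and glycine 2, 3 tRNA genes were higher (MT-TF, MT-TL2 and MT-TV), 1 nuclear gene of mitochondrial gene expression and 2 tRNA charging genes were higher, and 1 biogenesis regulator, 2 complex I genes and 3 genes of complexes III, IV and V were lower, with 0 of the last higher. Leaving out single libraries gave 0 to 4 tRNA genes higher and 0 to 1 lower, the 4 (MT-TF, MT-TL2, MT-TT and MT-TV) without vehicle 2 and the 1 (MT-TN) without vehicle 1. It gave 0 to 4 nuclear genes of mitochondrial gene expression, 0 to 2 genes of complexes III, IV and V and 1 to 4 tRNA charging genes higher, and 0 to 2 biogenesis regulators lower. These fits have fewer samples, and calls over all genes fell too. With every library kept, 1040 genes were called higher and 1013 lower. Leaving out single libraries gave 587 to 926 higher and 655 to 1010 lower.

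Over all genes tested, same-numbered libraries of the treatments did not deviate together (correlations -0.058, -0.027 and -0.003), so the replicate numbers were not read as pairs. For the mitochondrial messenger RNAs, replicate 2 was the highest within both treatments in all 13 genes, so a shared batch there cannot be told apart. With the replicate block, 0 protein-coding genes were called higher and 0 lower (2 with an unadjusted p under 0.05), MT-TT was 1 tRNA gene higher, 3 nuclear genes of mitochondrial gene expression and 3 tRNA charging genes were higher, and 1 biogenesis regulator was lower. Of the log2 changes of single genes, 677 kept their side of the threshold across alternatives, 74 lost it and 12 gained it, and none changed sign while called.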
